A study of Mus musculus with 6 samples.

Results

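The nuclear-encoded subunits of oxidative phosphorylation were followed across 6 libraries of sorted mouse myeloid cells. Members were taken by their symbols in the deposited count table, and the rule uses no measured value, although the group of genes itself was picked with earlier results of these data known: symbols that begin with Nduf followed by a, b, c, s or v and a number (complex I), the 4 Sdh genes (complex II), Uqcr (complex III), Cox followed by a number from 4 to 8 (complex IV) and Atp5 (complex V), without 5 rows whose symbol marks a numbered pseudogene. The rule took 84 of 49016 symbols, namely 37 for complex I, 4 for complex II, 8 for complex III, 18 for complex IV and 17 for complex V. The rule files Ndufa4 under complex I by its symbol, although its protein is known as a subunit of complex IV. It keeps the processed pseudogene Atp5l2-ps and Atp5s, which is not a classical subunit, and it misses the subunit genes Ndufab1 and Cyc1, whose values are given with the other pathway genes. Further nuclear subunit genes under other symbols were not searched for. Of the 84 genes, 2 (Cox7b2 and Cox8c) had no count in any library, and 5 (these and Cox4i2, Ndufa4l2 and Cox8b) had too few counts for the test between cell types, which left 79 tested.

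Oxidative phosphorylation takes place in the inner mitochondrial membrane. Complexes I and II take electrons from NADH and succinate and pass them through ubiquinone to complex III and then, through cytochrome c, to complex IV, which hands them to oxygen. Complexes I, III and IV pump protons out of the matrix, and complex V, the ATP synthase, uses the return of these protons to make ATP. Complex II pumps none and is also an enzyme of the citric acid cycle. Most subunits are encoded in the nucleus by small genes with short transcripts, while a core set of complexes I, III, IV and V is encoded in mitochondrial DNA and translated inside the organelle. In macrophages, the balance between oxidative phosphorylation and glycolysis is known to shift with activation.

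The series holds monocytes, which circulate in blood, intravascular macrophages (IVM), which lie within vessels, and microglia, the macrophages of the brain, each sorted from wild-type (WT) and BRAFV600E mutant mice, whose BRAF kinase is kept active. There was 1 library of full-length cDNA for each cell type in each genotype (SMART-Seq HT kit, then Nextera XT) from column-purified RNA. The labels do not give the promoter or Cre line behind the mutation, the number of animals in a library, the sorting gates, or whether cell types came from the same mice. The comparison of genotypes is therefore 1 library against 1 library, with no test. Cell types were compared over both genotypes, 2 libraries against 2.

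Total counts ran from 25787476 (wild-type monocytes) to 65519506 (mutant IVM). Markers of the labelled cell types were present: 10 microglia markers summed to 28814 CPM (counts relative to library size, scaled by TMM) for wild-type microglia, to 58186 CPM for mutant microglia and to 441 to 8646 CPM in the other libraries, and the sum of 7 markers of classical monocytes was 7109 (wild type) and 11599 CPM (mutant) in the monocyte libraries. The IVM libraries held 2060 CPM (wild type) and 8646 CPM (mutant) of the microglia markers, and 2710 and 3246 CPM of 9 markers of patrolling monocytes. Some libraries carried markers of other cells. In mutant monocytes, 11 neutrophil markers summed to 56483 CPM, with 10 of 11 at 10 CPM or more, against 1789 CPM in the wild-type library. The sum of 7 erythroid markers was 10484 CPM against 217 CPM. In wild-type IVM, 14 markers of T and NK cells summed to 5573 CPM, all 14 at 10 CPM or more, against 4.24 CPM in mutant IVM, where Cd8a and Ncr1 were at 0. Each comparison below that rests on these libraries moves together with those markers, and their part in the results was not tested. In bulk samples, fewer cells of a type and less RNA per cell cannot be told apart.

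The subunit genes took more of the counts in monocytes than in the other cells. Their summed level in monocytes was 42535 CPM (wild type) and 75432 CPM (mutant). It was 9971 and 6625 CPM in wild-type and mutant IVM, and 4791 and 12205 CPM in wild-type and mutant microglia. As shares of all counts, which need no scaling between libraries, these were 3.90% and 4.60% in monocytes, 1.26% and 0.864% in IVM, and 0.619% and 1.02% in microglia. Both monocyte libraries lay above the other 4 on both scales. The mutant library was below the wild-type one in IVM and above it in microglia. Wild-type IVM was below mutant microglia in CPM and above it as a share of counts.

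**Figure D1:**
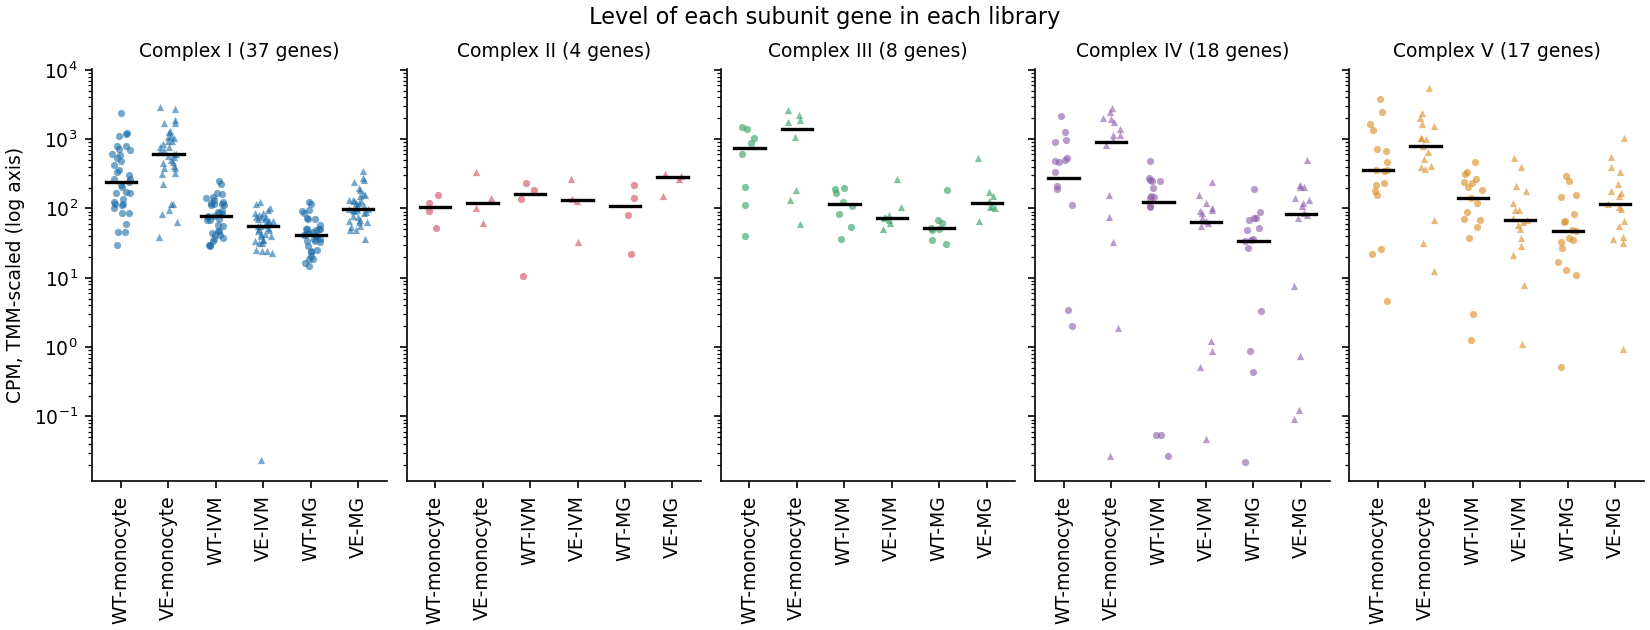
Level of each subunit gene in each library, in CPM scaled by TMM on a log axis, in 1 panel per complex; circles are wild-type and triangles mutant libraries, black bars are medians, genes with no count are not drawn, and heights of different genes are not comparable because CPM is not divided by length. Both monocyte libraries stand above the others for complexes I, III, IV and V, while the 4 complex II genes have medians of 106 and 121 CPM in monocytes and 110 to 280 CPM elsewhere.

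In complexes I, III, IV and V both monocyte libraries also lay above all the others, and in complex II they did not. The 37 complex I genes reached a sum of 15263 CPM (wild type) and 28699 CPM (mutant) in monocytes and of 1737 to 4355 CPM in the other libraries. The 8 complex III genes summed to 5769 and 9893 CPM in monocytes and to 534 to 1374 CPM elsewhere. The 18 complex IV genes summed to 8127 and 16833 CPM in monocytes against 732 to 2366 CPM, and the 17 complex V genes to 12957 and 19374 CPM against 1329 to 3589 CPM. The sum of the 4 complex II genes was 418 CPM (wild type) and 634 CPM (mutant) in monocytes, 569 and 559 CPM in IVM, and 459 and 1018 CPM in microglia, so that wild-type monocytes were lowest and mutant monocytes second to mutant microglia.

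Levels can be set between genes only per length, as in the authors' deposited TPM. Averaged over the 6 libraries, the highest subunit gene was Ndufa1, a small accessory subunit of complex I, with a mean of 2710 TPM. It had 8741 and 5898 TPM in wild-type and mutant monocytes and 210 to 516 TPM in the other libraries. The highest of complex III was Uqcr11 (1264 TPM), of complex V Atp5k, subunit e of the ATP synthase (1110 TPM), of complex IV Cox6a1 (1100 TPM), and of complex II Sdhd, a membrane anchor (212 TPM). At the other end, among genes with at least 1 TPM, were Cox6a2 (7.25 TPM), Ndufs1, the largest iron-sulphur subunit of complex I (13.8 TPM), Atp5s (15.6 TPM), Sdhc, the other membrane anchor of complex II (29.3 TPM), and Uqcrc2, a core subunit of complex III (61.2 TPM). Within complex I the mean levels of the 36 genes with at least 1 TPM thus ran from 13.8 to 2710 TPM. The TPM of a gene rests on the length the authors used, which was not read directly. Counts divided by TPM give it up to a common factor. That factor was set so that the median over all genes matched the transcript length used here. On that scale it was 131% of the transcript length at the median of the members (range 72.4% to 991%).

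The subunit genes have short transcripts. The shortest principal transcript in GENCODE M21 (build GRCm38, mm10) had a median of 709 nt (range 312 to 3171 nt) over the 84 genes. It was 2475 nt over the 13778 genes that passed a minimum of summed counts, which was not asked of the 84. The medians by complex were 541 nt for III, 594.5 nt for IV, 714 nt for V, 763 nt for I and 2065.5 nt for II. For the genotype ratios the trend of the log2 ratio on log2 length over all measured genes was also removed (lowess). For the cell type tests, a lowess trend on log2 length was fitted in each library. It was fitted to log2 CPM minus the mean over the libraries, and was taken out within the test as an offset. The median without the trend is given beside the plain one.

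Promoters of the subunit genes carried known motifs more often than promoters at large, which is a description of the sequences and not of binding. RefSeq promoters (build GRCm38.p6, 250 bases before to 50 after the start) were found for 66 of the 84 genes, 71 promoters in all. On either strand, the core of the motif of NRF1 (GCGCA and GCGC with any base between them), a known activator of nuclear genes for mitochondrial proteins, was found in 25.4% of them and in 4.60% of 32851 promoters. CCGGAAG, the ETS-type core bound by GABPA (also called NRF2), was in 22.5% against 8.86%, and AAGATGG followed by CGG, a core of the YY1 motif, in 7.04% against 0.852%. The AAG that ends the GABPA core also begins the YY1 core, so that 1 stretch can match both. Shown are the promoter of Atp5k, the member whose difference between cell types held under the most settings, that of Sdhd, of complex II, in which no difference between cell types was called, and that of Cox6b2, the member with the largest difference; all 3 are on the minus strand and written 5′ to 3′, with matches to the NRF1 and GABPA cores on either strand in capitals. They lie at chr5:108434350-108434649, chr9:50603800-50604099 and chr7:4753045-4753344.
Atp5k: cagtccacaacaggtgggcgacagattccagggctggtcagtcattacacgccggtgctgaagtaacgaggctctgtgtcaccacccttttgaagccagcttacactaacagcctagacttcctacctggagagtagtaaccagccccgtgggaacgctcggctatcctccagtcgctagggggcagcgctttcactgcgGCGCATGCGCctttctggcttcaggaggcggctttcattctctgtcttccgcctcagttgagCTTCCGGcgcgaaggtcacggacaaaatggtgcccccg
Sdhd: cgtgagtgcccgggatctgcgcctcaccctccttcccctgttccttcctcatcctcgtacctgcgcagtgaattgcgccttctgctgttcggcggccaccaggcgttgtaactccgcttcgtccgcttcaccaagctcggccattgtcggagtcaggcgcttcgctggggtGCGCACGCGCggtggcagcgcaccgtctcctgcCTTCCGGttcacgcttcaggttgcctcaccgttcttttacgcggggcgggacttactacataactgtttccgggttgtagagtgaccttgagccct
Cox6b2: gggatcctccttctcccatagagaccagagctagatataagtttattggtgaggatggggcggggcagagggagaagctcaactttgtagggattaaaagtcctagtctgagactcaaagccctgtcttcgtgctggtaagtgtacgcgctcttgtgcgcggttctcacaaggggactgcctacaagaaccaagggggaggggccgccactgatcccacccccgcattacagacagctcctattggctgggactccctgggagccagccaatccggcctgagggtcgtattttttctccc
The promoters of Atp5k and Sdhd each held both cores although the genes differ in their pattern across cell types, and that of Cox6b2 held neither of these letters in this window.

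Microglia had lower levels of many subunit genes than monocytes. Of 79 genes tested, 26 fell and 0 rose in microglia at an adjusted p under 0.05 (edgeR quasi-likelihood test on all 6 libraries, genotype as a term, Benjamini-Hochberg over 16979 genes), where 2.84% of all genes were called lower and 1.48% higher. At an unadjusted p under 0.05 the same test had 50 lower and 1 higher, where 2880 of all 16979 genes passed in either direction. DESeq2, which covered 82 members, called 41 lower and 0 higher, for which no share over all genes is given. The median over the 79 genes was a log2 fold change of -3.05, that is 8.31-fold lower, against 0.13 over all genes, and it was -2.99 among the wild-type and -2.99 among the mutant libraries taken alone. The libraries of both cell types did not overlap, with microglia lower, for 56 of the 79 genes (29.7% of all genes) and with microglia higher for 6 (32.6%). By complex, 12 of 36 tested genes of complex I, 0 of 4 of complex II, 4 of 8 of complex III, 4 of 14 of complex IV and 6 of 17 of complex V fell. The count rests on single libraries: it was 3 without wild-type microglia, 6 without mutant monocytes, 17 without mutant microglia, and 53 without either IVM library. Labels do not say that libraries came from separate animals, and each cell type has 1 library per genotype. The p-values therefore reflect how far these 6 libraries vary once cell type and genotype are fitted. That spread holds any genotype difference that the cell types do not share. It cannot be told apart from technical variation or from variation between animals.

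In complex V, the genes that fell in microglia were Atp5e, Atp5g1, Atp5j, Atp5j2, Atp5k and Atp5l. Atp5k (chr5:108433244-108434448) had 1627 and 1656 CPM in wild-type and mutant monocytes, 54.5 and 21.2 CPM in IVM, and 11.1 and 31.5 CPM in microglia. Monocytes lay far above both other cell types, which overlapped each other. The log2 fold change in microglia was -6.28 (SE 1.13, adjusted p = 0.00787 by edgeR). Atp5k alone among the 26 genes stayed below an adjusted p of 0.05 under all 14 alternative settings, with the highest adjusted p of 0.0466 without wild-type microglia. Atp5l, subunit g, which sits beside subunit e where 2 ATP synthases pair, had 728 and 1013 CPM in monocytes, 38.0 and 37.9 CPM in IVM, and 16.8 and 38.9 CPM in microglia (log2 fold change -5.03, SE 0.89, adjusted p = 0.00708 by edgeR, range 8.3e-10 to 0.0632 over the settings). Reads of these genes could be shared with close copies such as Atp5l2-ps, since the handling of reads with several matches is not given in the sources used here.

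Among the small accessory subunits of complex I, Ndufc1 had 691 and 1084 CPM in wild-type and mutant monocytes, 36.7 and 23.1 CPM in IVM, and 16.2 and 36.5 CPM in microglia. Its log2 fold change in microglia was -5.11 (SE 0.92, adjusted p = 0.00803 by edgeR). Ndufb2 had 585 and 1045 CPM in monocytes, 30.0 and 24.03 CPM in IVM, and 14.8 and 48.3 CPM in microglia, a log2 fold change of -4.79 (SE 0.91, adjusted p = 0.0105 by edgeR). In both genes the monocyte libraries stood apart, and IVM and microglia overlapped. Exons of Ndufb2 overlap Braf on the opposite strand. Whether counting used strand is not given in the sources used here, so reads in the shared stretch cannot be told apart. Exons of 29 of the 84 members overlap another annotated gene. Among them are Atp5l, Atp5d, Ndufs1 (with Eef1b2), Cox4i1 (with Emc8) and Cox6a2 (with Itgad), all on the opposite strand. Ndufa1, the most abundant member, had 2396 and 2951 CPM in monocytes, 123 and 66.3 CPM in IVM, and 40.5 and 111 CPM in microglia (log2 fold change -5.19, SE 1.12, adjusted p = 0.0218 by edgeR). In complex III, Uqcr10 and Uqcr11, both small membrane subunits, fell by 5.07 and 4.24 on the log2 scale in microglia (adjusted p = 0.0190 and 0.0264 by edgeR).

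The core subunits that carry the redox centres or the catalytic sites were not called. Ndufs1 had 45.4 and 38.9 CPM in wild-type and mutant monocytes, 89.2 and 65.7 CPM in IVM, and 48.9 and 67.3 CPM in microglia, with monocytes lowest. Ndufv1, which binds NADH, had 60.1 and 63.8 CPM in monocytes, 33.5 and 69.8 CPM in IVM, and 58.1 and 120 CPM in microglia, and the cell types overlapped. In complex III, Uqcrc1 (a core subunit) overlapped between all cell types, at 207 and 184 CPM in monocytes, 200 and 268 CPM in IVM, and 187 and 539 CPM in microglia, while the Rieske iron-sulphur subunit Uqcrfs1 was lower in both other cell types (113 and 131 CPM in monocytes, 36.2 and 76.2 CPM in IVM, 48.3 and 110 CPM in microglia; log2 fold change in microglia -0.76, SE 0.69, adjusted p = 0.641 by edgeR). Of the catalytic head of complex V, the alpha subunit Atp5a1 had 359 and 510 CPM in monocytes, 338 and 397 CPM in IVM, and 251 and 557 CPM in microglia. The beta subunit Atp5b, which holds the catalytic sites, had 2448 and 2366 CPM in monocytes, 468 and 528 CPM in IVM, and 294 and 1025 CPM in microglia, a log2 fold change of -2.05 in microglia (SE 1.03, adjusted p = 0.337 by edgeR) with no overlap of the libraries. The gamma subunit Atp5c1 had 346 and 412 CPM in monocytes, 240 and 210 CPM in IVM, and 157 and 401 CPM in microglia.

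None of the 4 complex II genes was called between any pair of cell types. Sdha, the flavoprotein that oxidises succinate, had 121 and 141 CPM in wild-type and mutant monocytes, 187 and 262 CPM in IVM, and 216 and 265 CPM in microglia, with both monocyte libraries lowest (log2 fold change in microglia 0.88, SE 0.69, adjusted p = 0.575 by edgeR). Sdhb, the iron-sulphur subunit, had 154 and 330 CPM in monocytes, 235 and 137 CPM in IVM, and 139 and 294 CPM in microglia. The anchor Sdhd had 91.8 and 102 CPM in monocytes, 137 and 127 CPM in IVM, and 80.9 and 309 CPM in microglia. Sdhc, the other anchor, had 51.9 and 61.9 CPM in monocytes, 10.4 and 32.3 CPM in IVM, and 21.8 and 150 CPM in microglia; its IVM libraries lay below both monocyte libraries (log2 fold change -1.77, SE 0.81, adjusted p = 0.602 by edgeR). Sdhb overlapped between all cell types, and Sdhd overlapped between microglia and each of the others.

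The differences followed transcript length. The 26 genes that fell in microglia had transcripts of 315 to 1001 nt. Of the members under 600 nt, 20 of 29 were called, and of those of 1000 nt or more, 1 of 26. Across the 79 genes Pearson's r of the log2 fold change with log2 length was 0.75, and 0.18 across 16852 genes; these are across genes, which are not independent replicates, and the genes share the same 6 libraries. Shorter genes were lower in microglia among all genes too, with a median of -2.24 under 600 nt, -0.84 at 600 to under 1000 nt, 0.44 at 1000 to under 2000 nt and 0.32 from 2000 nt. The medians of the members in these classes were -4.19, -2.74, -0.53 and, over only 5 genes, -0.00. Removing the length trend over all genes moved the members' median from -3.05 to -1.48, where all genes then had a median of 0.16. This left 2 of 79 called, where 1.54% of all genes were called lower. These were Atp5k (log2 fold change -3.72, adjusted p = 0.0452 by edgeR) and Atp5j2, subunit f of the ATP synthase (-3.97, adjusted p = 0.0433 by edgeR; range over the settings 4.82e-09 to 0.250). At an unadjusted p under 0.05 this fit had 37 lower and 2 higher, for which no share over all genes is given. Beyond this removal the part of length in the differences was not tested.

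**Figure D2:**
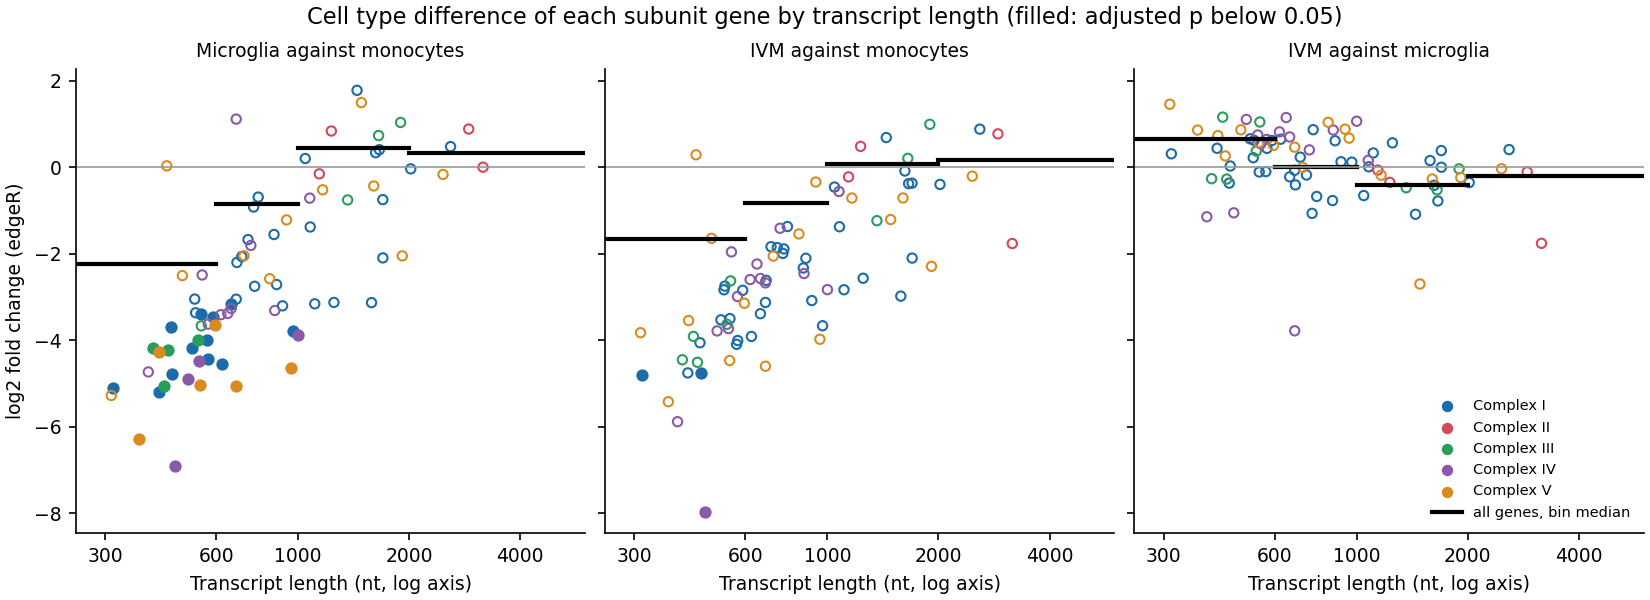
Log2 fold change of each of 79 subunit genes (edgeR) against transcript length on a log axis, for the 3 pairs of cell types; points are genes coloured by complex, filled where the adjusted p is under 0.05, and black bars are the medians of all genes in each length class. Under 600 nt the members' medians were -4.19 in microglia and -3.79 in IVM against monocytes, below the -2.24 and -1.66 of all genes, while IVM against microglia had no filled point.

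Intravascular macrophages differed from monocytes in the same direction with fewer calls. Of 79 genes, 3 fell and 0 rose (edgeR, adjusted p under 0.05), where 0.171% of all genes were called lower and 0.247% higher. At an unadjusted p under 0.05 the test had 52 lower and 0 higher, where 1406 of all 16979 genes passed in either direction. DESeq2, which covered 82 members, called 25 lower and 0 higher, for which no share over all genes is given. The median log2 fold change was -2.58, or 5.97-fold lower, against -0.10 over all genes. It was -1.74 among wild-type and -3.73 among mutant libraries. Libraries did not overlap, with IVM lower, for 64 genes (23.4% of all genes) and with IVM higher for 5 (20.3%). The genes that fell were Cox6b2 (log2 fold change -7.97, SE 1.40, adjusted p = 0.0310), Ndufc1 (-4.80, SE 0.92, adjusted p = 0.0482) and Ndufb2 (-4.77, SE 0.91, adjusted p = 0.0492), all by edgeR. The count became 54 without wild-type IVM, the library with T and NK cell markers, 27 without mutant IVM, 22 without wild-type microglia, 24 without mutant microglia and 0 without wild-type monocytes. With the length trend removed the median was -1.32, against 0.22 over all genes, and no member was called (0.0% of all genes were called lower). At an unadjusted p under 0.05 that fit had 32 members lower and 1 higher, for which no share over all genes is given.

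Between IVM and microglia no member was called in either direction (edgeR; DESeq2 also called 0), where 0.0236% of all genes were lower and 1.08% higher in IVM. At an unadjusted p under 0.05 edgeR had 1 lower and 0 higher, where 1178 of all 16979 genes passed in either direction. Over 82 members DESeq2 had 2 lower and 0 higher. The median log2 fold change was 0.15, but it was 1.04 among the wild-type libraries and -0.86 among the mutant ones, and it was 0.13 with the length trend removed. Libraries did not overlap for 6 genes lower in IVM (22.3% of all genes) and for 1 higher (13.8%). The 6 were Atp5s, Cox6a2, the complex I accessory subunit Ndufa9 and the complex I core subunits Ndufs3, Ndufs7 and Ndufs8, and the 1 was Atp5l2-ps. Without mutant IVM, 9 genes were called higher and 3 lower in IVM.

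Mutant microglia had more of nearly all subunit genes than wild-type microglia. Among 75 genes with at least 10 CPM in either library, 65 were at least 2-fold higher in the mutant library and 0 at least 2-fold lower, where 27.9% of all genes were 2-fold higher and 25.4% lower. All 75 log2 ratios were above 0, with a median of 1.36 against 0.12 over all genes. The medians were alike across complexes, at 1.37 for I, 1.505 for II, 1.26 for III, 1.34 for IV and 1.32 for V. Scaled by library size alone the median was 0.73 and 12 genes were 2-fold higher, but all genes then had a median of -0.50. Genes of like length were higher too: all genes had medians of 1.14 under 600 nt, 1.24 at 600 to under 1000 nt and 1.15 at 1000 to under 2000 nt, and members 1.30, 1.41 and 1.34. From 2000 nt, all genes had a median of -0.57 and the 5 members 1.15. With the length trend removed the members' median was 0.29 and 4 genes were at least 2-fold higher. Over all 8734 genes with a length, 1085 were then 2-fold higher and 1194 lower, with a median of 0.05.

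Sdhc, a membrane anchor of complex II with a transcript of 3171 nt, had the largest ratio in microglia. In microglia it had 21.8 CPM (wild type) and 150 CPM (mutant), 6.89-fold higher (95% interval 6.43 to 7.38, which covers counting error only), and its IVM levels given above were 3.10-fold higher in the mutant (2.78 to 3.45). Removal of the length trend left its log2 ratio in microglia at 3.19 from 2.78. Atp5g3, which encodes the c-ring subunit of the ATP synthase, had 34.9 and 167 CPM in wild-type and mutant microglia (4.80-fold, 4.54 to 5.08), and Ndufa12, an accessory subunit of complex I, 20.8 and 96.6 CPM (4.65-fold, 4.32 to 5.01). The smallest ratios were those of Sdha, with 216 and 265 CPM (1.23-fold, 1.19 to 1.26), Ndufs1, with 48.9 and 67.3 CPM (1.38-fold, 1.30 to 1.46), and Ndufa13, with 85.5 and 130 CPM (1.52-fold, 1.46 to 1.59). In the single comparison of 2 libraries these intervals say nothing on the spread between mice.

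**Figure D3:**
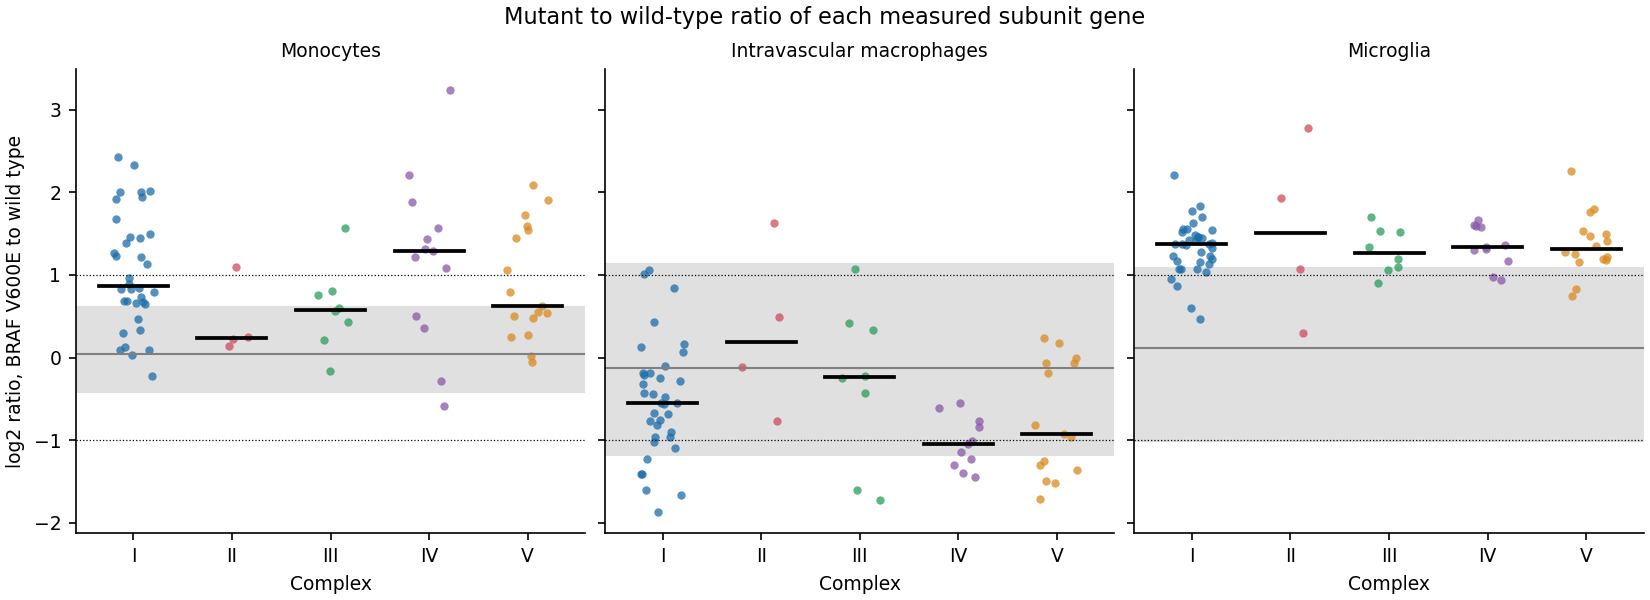
Log2 ratio of mutant to wild type of each measured subunit gene (points) by complex, in 3 cell types, 1 library against 1; black bars are medians of the complex, the grey line and band are the median and the middle quartiles of all genes, and dotted lines mark 2-fold. All 75 points lie above 0 in microglia, 73 of 78 lie above 0 in monocytes, and 60 of 74 lie below 0 in intravascular macrophages.

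Mutant monocytes also had higher levels of many subunit genes. Of 78 measured genes, 34 were at least 2-fold higher and 0 at least 2-fold lower in the mutant library, where 16.7% of all genes were higher and 6.33% lower. The median log2 ratio was 0.82 against 0.05 over all genes, and by complex 1.29 for IV, 0.87 for I, 0.63 for V, 0.58 for III and 0.24 for II. Without the length trend the median was -0.03, with 5 genes 2-fold higher and 4 lower. Over all 8311 genes with a length, 852 were then 2-fold higher and 865 lower, with a median of -0.16. The length classes were 0.67 for members and 0.55 for all genes under 600 nt, 1.46 and 1.24 at 600 to under 1000 nt, 0.79 and 0.26 at 1000 to under 2000 nt, and 0.22 (5 genes) and -0.14 from 2000 nt. The mutant library is the one in which the neutrophil and erythroid markers stood at 56483 and 10484 CPM. There 7 platelet markers summed to 1757 CPM against 41.2 CPM in the wild type, and the 14 markers of T and NK cells to 365 against 106 CPM.

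The largest ratio in monocytes was that of Cox7a1, a complex IV isoform of heart and skeletal muscle, with monocyte levels of 3.39 CPM (wild type) and 32.3 CPM (mutant) (9.53-fold, 7.60 to 12.1) and at most 0.516 CPM elsewhere. Ndufa8, an accessory subunit of complex I, had 86.8 and 468 CPM in wild-type and mutant monocytes (5.39-fold, 5.15 to 5.65), 28.5 and 57.3 CPM in IVM (2.01-fold, 1.88 to 2.15), and 41.3 and 121 CPM in microglia (2.94-fold, 2.78 to 3.11). It was the only member at least 2-fold higher in the mutant in all 3 cell types. Ndufb8, another accessory subunit, had 540 and 2725 CPM in monocytes (5.05-fold, 4.96 to 5.15), and its exons overlap the annotated gene Gm20538 on the same strand. The lowest ratios were those of Cox6b2, with 114 and 75.7 CPM (1.504-fold lower in the mutant, 1.43 to 1.59), Cox7a2l, which is known for its part in joining complexes III and IV, with 191 and 157 CPM (1.21-fold lower, 1.17 to 1.26), and Ndufs1, with 45.4 and 38.9 CPM (1.17-fold lower, 1.08 to 1.26).

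Mutant IVM went the other way. Of 74 measured genes, 4 were at least 2-fold higher and 23 at least 2-fold lower in the mutant library, and the background was 26.9% of all genes higher and 28.8% lower, so the share of members lower was near the background and that of members higher below it. The median log2 ratio was -0.64 against -0.13 over all genes. By complex it was -1.05 for IV, -0.92 for V, -0.55 for I, -0.24 for III and 0.19 for II. All genes under 600 nt had a median of -2.00 and the members of that length -0.91, and at 600 to under 1000 nt both stood near each other, at -0.84 and -0.82. With the length trend removed the members' median was 0.27, with 17 genes 2-fold higher and 2 lower. Over all 9496 genes with a length, 2293 were then 2-fold higher and 3031 lower, with a median of -0.26. The share of members higher was thus near the background and that of members lower below it. In the authors' TPM it was 0.57, where all genes had a median of 1.02. Gm23935, named here because of its values, held 46.6% of the TPM of wild-type and 5.02% of that of mutant IVM, which lowers the TPM of each other gene in the wild-type library. It held 38.1% in wild-type and 1.13% in mutant microglia, and 8.11% in wild-type and 4.56% in mutant monocytes. The wild-type library is also the one with the T and NK cell markers, and the mutant library held more of the neutrophil and classical monocyte markers.

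The lowest ratios in IVM were those of Ndufb3, an accessory subunit of complex I, with 148 and 40.5 CPM (3.65-fold lower, 3.49 to 3.81), Uqcr10, with 167 and 50.2 CPM (3.32-fold lower, 3.19 to 3.45), and Atp5d, the delta subunit of the ATP synthase, with 317 and 96.4 CPM (3.29-fold lower, 3.19 to 3.38). The highest, after Sdhc, were Uqcrfs1, with 36.2 and 76.2 CPM (2.10-fold, 1.98 to 2.23), and Ndufv1, with 33.5 and 69.8 CPM (2.08-fold, 1.96 to 2.22). Over the 74 genes measured in all 3 cell types, 21 were beyond 2-fold in opposite directions (16.7% of all genes measured in all 3), each of them lowest in IVM (7.2% of all genes). Of 75 members measured in monocytes and microglia, 30 were at least 2-fold higher in both (9.67% of all genes).

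**Figure D4:**
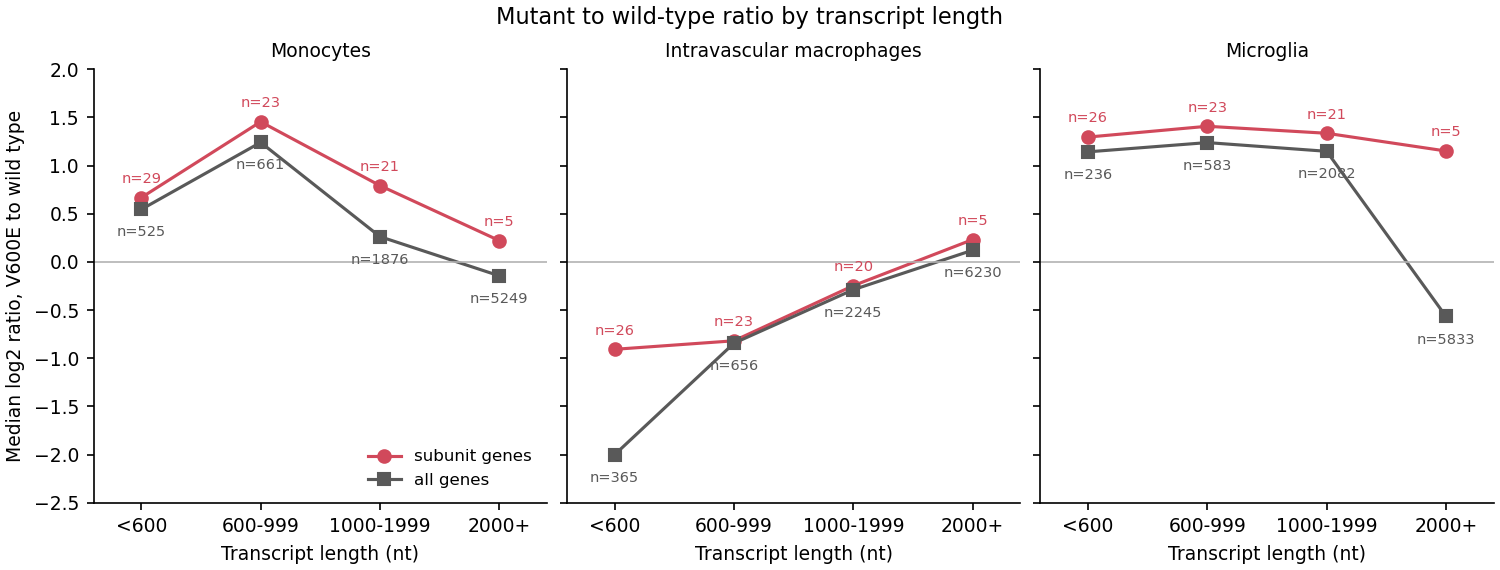
Median log2 ratio of mutant to wild type by transcript length class for subunit genes (red circles) and all genes (grey squares), in 3 cell types, with the number of genes beside each point. In microglia the members lie at 1.30 and all genes at 1.14 under 600 nt, and in intravascular macrophages the members lie at -0.91 and all genes at -2.00 under 600 nt; the class from 2000 nt holds 5 subunit genes.

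Complex IV has paired isoforms, of which the common form was found throughout and the tissue-restricted form was below 10 CPM, with the exceptions of Cox6b2 in both monocyte libraries and Cox7a1 in mutant monocytes. Cox4i1 had 533 and 1974 CPM in wild-type and mutant monocytes, 486 and 242 CPM in IVM, and 191 and 494 CPM in microglia, while Cox4i2, known from lung, had at most 0.0264 CPM. Cox6a1 had 905 and 2452 CPM in monocytes, 247 and 101 CPM in IVM, and 68.4 and 205 CPM in microglia, while Cox6a2, the form of heart and skeletal muscle, had 2.03 and 1.88 CPM, 0.0273 and 1.22 CPM, and 3.35 and 7.49 CPM. Cox8a had 494 and 1148 CPM in monocytes, 251 and 121 CPM in IVM, and 89.5 and 201 CPM in microglia, and the muscle form Cox8b at most 0.0921 CPM. Of subunit 7a, Cox7a2 had 337 and 823 CPM in monocytes, 105 and 62.1 CPM in IVM, and 34.7 and 85.4 CPM in microglia. In complex I by symbol, Ndufa4 had 710 and 1711 CPM in monocytes, 55.03 and 74.0 CPM in IVM, and 44.0 and 157 CPM in microglia, and Ndufa4l2, known to be induced by hypoxia, 2 counts in 1 library.

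Cox6b2 had the highest level among these restricted forms. Known from testis, it had 114 and 75.7 CPM in wild-type and mutant monocytes, 0.0546 CPM (2 counts) and 0.879 CPM in IVM, and 0.875 and 0.737 CPM in microglia. Both monocyte libraries stood far above the other 4. Its log2 fold change in microglia was -6.91 (SE 1.30, adjusted p = 0.00991 by edgeR; range over the settings 7.45e-16 to 0.559, the highest without wild-type monocytes). The common form Cox6b1 had 967 and 2045 CPM in monocytes, 277 and 154 CPM in IVM, and 72.4 and 220 CPM in microglia, with no call (adjusted p = 0.0756 by edgeR in microglia).

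Genes of the pathway outside the rule gave a mixed pattern. The 13 subunits encoded in mitochondrial DNA had a median log2 fold change of -1.22 in microglia against monocytes, with 0 of 13 called (edgeR; 5 at an unadjusted p under 0.05 in either direction), and took 0.952% and 0.963% of counts in wild-type and mutant monocytes, 0.950% and 0.676% in IVM, and 0.567% and 1.25% in microglia. Their median log2 ratios of mutant to wild type were 0.45 in monocytes, -1.35 in IVM and 2.13 in microglia, where the nuclear subunits had 0.82, -0.64 and 1.36. Removal of the length trend left those of the mitochondrial subunits at -0.50, -0.12 and 1.11, and their median in microglia against monocytes was -0.52. Cycs, cytochrome c, had 1222 and 2049 CPM in monocytes, 51.1 and 66.0 CPM in IVM, and 30.8 and 103 CPM in microglia (log2 fold change in microglia -4.76, adjusted p = 0.0156 by edgeR), with a transcript of 3123 nt, and was still called at -4.85 with the length trend removed. Atpif1, the inhibitor of the ATP synthase, fell by 4.11 on the log2 scale in microglia (adjusted p = 0.0416 by edgeR), and with the length trend removed its log2 fold change was -2.05 with no call. The 2 subunits outside the rule that were looked at were not called: Ndufab1 had 84.3 and 350 CPM in monocytes, 34.9 and 59.9 CPM in IVM, and 66.2 and 126 CPM in microglia, and Cyc1 70.8 and 82.5 CPM, 167 and 85.9 CPM, and 84.7 and 238 CPM.

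Of 43 assembly factors tested, 4 fell in microglia (2.84% of all genes) and 0 rose, with a median of -0.05. No factor was called in either direction once the length trend was removed, and the median was then 0.18. The 4 that fell with the trend left in were Cox17, a copper chaperone of complex IV (-4.71, adjusted p = 0.0148), Uqcc2 (-3.59, adjusted p = 0.0266), Ndufaf8 (-3.27, adjusted p = 0.0343) and Cox14 (-3.09, adjusted p = 0.0466), by edgeR. Of 16 citric acid cycle and pyruvate dehydrogenase genes, 0 were called (edgeR; 0 at an unadjusted p under 0.05) and the median was 0.23. The 11 known regulators of nuclear or mitochondrial genes for mitochondrial proteins, among them Nrf1, Gabpa, Yy1 and Tfam, had 0 of 10 tested genes called (edgeR; 0 at an unadjusted p under 0.05). The median log2 ratios of mutant to wild type in monocytes, IVM and microglia were 0.63, -0.59 and 1.17 for the assembly factors, 0.16, 0.36 and 1.01 for the citric acid cycle genes, and -0.31, 0.80 and -0.10 for the regulators. These became 0.16, -0.31 and 0.39 for the assembly factors, -0.02, 0.09 and 0.43 for the citric acid cycle genes, and -0.64, 0.53 and -0.12 for the regulators with the length trend removed.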

How the data were processed

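RNA from 6 libraries was measured by full-length cDNA sequencing. Gene counts and TPM were deposited by the authors as 2 tables. Per the submitters' processing notes, bcl2fastq 2.20, Trimmomatic 0.37, STAR 2.5.2b and Subread 1.5.2 were used with build mm10, while the sources used here do not give the annotation, the strand setting or the treatment of reads with several matches. The authors' TPM is relative to each library's own total and to the authors' gene lengths.

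From the deposited counts, 176 lines without a name (0.00507% to 0.0166% of counts) were left out, as were 26 symbols turned into dates (0.0618% to 0.237%), and repeated symbols (94) were summed. CPM were scaled by TMM. Genotypes were compared as log2 ratios with a prior count of 2, with no test, over genes with at least 10 CPM in either library; intervals are exact conditional binomial 95% intervals and cover counting error only. Cell types were compared with edgeR 4.0.16 (quasi-likelihood, R 4.3.3) on 6 libraries with genotype as a term, after filterByExpr, with Benjamini-Hochberg adjustment over all genes and 2 residual degrees of freedom. Alternatives used DESeq2 1.42.0 and limma 3.58.1. On simulated data for microglia against monocytes (16979 genes, 200 changed), the test recovered 93.0% of 4-fold changes at a dispersion of 0.01 and 61.5% at 0.1. These simulated counts held no genotype effect and no genotype difference between cell types. The rates therefore do not carry over to the deposited data. There, the called members of this comparison had log2 fold changes of -3.16 or lower.

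The member rule reads symbols only, but this group of genes and the lists were picked with earlier results of these data known. The members named are, by rule, the 3 highest and 3 lowest log2 ratios in each genotype comparison, the highest and lowest mean TPM of each complex (lowest of those with at least 1 TPM), the isoform sets of complex IV and Ndufa4, up to 5 called members with the smallest adjusted p per direction and pair of cell types, the 4 Sdh genes, members beyond 2-fold one way in all 3 genotype comparisons, and 8 core subunits, of which 1 is not reported here. Other members and Gm23935 were named after their values were seen.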

Additional observations from a re-analysis of the deposited data

Results flagged for a closer look

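The ratio of mutant to wild type differed between cell types, each ratio being 1 library against 1, so none of these differences was tested. The median log2 ratio of the subunit genes was higher in monocytes than in intravascular macrophages by 1.45, and higher in microglia than in intravascular macrophages by 1.99. Among the named genes beyond 2-fold in opposite directions, the highest minus the lowest log2 ratio over the 3 cell types was 3.23 for Ndufa12, 3.06 for Ndufb3, 2.90 for Cox4i1, 2.88 for Cox6a1, 2.86 for Atp5k, 2.82 for Uqcr10, 2.78 for Atp5d and 2.26 for Cox8a. In each of these genes the lowest ratio was in intravascular macrophages. With the length trend removed the medians were -0.03 in monocytes, 0.27 in intravascular macrophages and 0.29 in microglia. Those of all genes were then -0.16, -0.26 and 0.05. Markers of T and NK cells summed to 5573 CPM (wild type) and 4.24 CPM (mutant) in intravascular macrophages, and neutrophil markers to 23.2 and 396 CPM. The part of these markers in the differences was not tested.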

How the results depend on the processing

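For mutant against wild type, the median log2 ratio in monocytes was 0.76 with DESeq2 size factors, 0.80 with a minimum of 1 CPM, 0.21 by library size (15 genes at least 2-fold higher, 1 lower), -0.052 in TPM (12 higher, 3 lower) and -0.033 with the length trend removed (5 higher, 4 lower). In intravascular macrophages it was -0.61 with DESeq2 size factors, -0.61 with a minimum of 1 CPM, -0.56 by library size, 0.57 in TPM (22 higher, 0 lower) and 0.27 with the length trend removed (17 higher, 2 lower). In microglia it was 1.35 with a minimum of 1 CPM, 0.73 by library size (12 higher), 1.07 in TPM and 0.29 with the length trend removed (4 higher). Gm23935 held 38.1% of the TPM of wild-type and 1.13% of that of mutant microglia, which raises the ratio in TPM of each other gene. All genes moved as well: their medians in monocytes, intravascular macrophages and microglia were 0.05, -0.13 and 0.12 by TMM, -0.54, -0.08 and -0.50 by library size, and -0.71, 1.02 and -0.13 in TPM. These became -0.16, -0.26 and 0.05 with the length trend removed. Counts past 2-fold over all genes are given above by TMM and with the length trend removed, but not for the other settings. With the length trend removed, the log2 ratio changed sign for 37 of 78 members in monocytes, 36 of 74 in intravascular macrophages and 12 of 75 in microglia. Among named members beyond 2-fold, these were Atp5d (-0.0019), Cox6b1 (-0.14), Cox8a (-0.034) and Ndufa4 (-0.0059) in monocytes, Atp5k (0.65), Cox6a1 (0.10), Cox8a (0.40) and Uqcr10 (0.059) in intravascular macrophages, and Uqcr10 (-0.060) in microglia; the sign changed in TPM for Cox4i1 (0.21), Cox8a (0.17) and Ndufa12 (0.19) in intravascular macrophages. The cause was not tested.

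For intravascular macrophages against monocytes, the genes called lower were 0 by library size, 26 with no filter, 25 with DESeq2, 0 without the genotype term, 0 with the length trend removed, 9 from the 4 libraries of these cell types alone, and 0 to 54 with 1 library left out. For microglia against monocytes they were 7, 43, 41, 18, 2 and 53 (with 1 higher) under those settings, and 3 to 53 with 1 library left out (0 to 1 higher). That median was -3.01 with DESeq2 size factors, -2.58 by library size, -2.90 with no filter, -2.86 with DESeq2, -3.09 without the genotype term, -1.48 with the length trend removed, -2.24 in TPM with limma, -3.07 from 4 libraries, and -3.70 to -2.58 with 1 library left out. For intravascular macrophages against microglia, 0 to 9 genes were higher and 0 to 3 lower with 1 library left out. A group left with 1 library was assumed to vary like the others. DESeq2 and the fit with no filter covered 82 members, the main test 79. Of these alternatives, the share over all genes is given above only for the removal of the length trend. No paired analysis was possible because the labels give no replicate numbers that pair libraries; genotype, shared across cell types, was already a term of the test, and its removal is given above. With 25787476 counts or more per library, counting error was small for most members; the lack of replicates, not depth, limits the genotype ratios, whereas Cox4i2, Ndufa4l2 and Cox8b had too few counts for any comparison.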

Other observations

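The 78 genes for mitochondrial ribosomal proteins, which serve the translation of the subunits encoded in mitochondrial DNA, were looked at after the values of the subunit genes were known. Their sum was 0.662% and 0.908% of counts in wild-type and mutant monocytes, 0.446% and 0.276% in intravascular macrophages, and 0.220% and 0.329% in microglia. In microglia against monocytes 4 of 78 fell and 0 rose (edgeR, adjusted p under 0.05), where 2.84% of all genes were called lower and 1.48% higher. The median log2 fold change was -0.47, against -3.05 for the subunit genes. Removal of the length trend gave -0.26 against -1.48. Between genotypes, the median log2 ratio (mutant over wild type) was 1.26 in monocytes, -0.67 in intravascular macrophages and 1.23 in microglia. In that order, 42 of 75, 8 of 76 and 58 of 77 measured genes were at least 2-fold higher and 0, 24 and 0 at least 2-fold lower. Of all genes, 16.7%, 26.9% and 27.9% were higher and 6.33%, 28.8% and 25.4% lower. The share lower in intravascular macrophages was thus near the background. Their median transcript length was 1280 nt over the genes measured in monocytes. With the length trend removed the 3 medians were 0.44, -0.08 and 0.38.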
